A study of Arabidopsis thaliana with 16 samples.

Results

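The transcript levels of 7 genes that remove active abscisic acid (ABA) or return it from its stored form were followed in germinating Arabidopsis seeds given ABA, glucose (Glc) or both. The genes were chosen by their known place in the pathway: the 4 ABA 8′-hydroxylases CYP707A1, CYP707A2, CYP707A3 and CYP707A4, the glucosyltransferases UGT71B6 and UGT71C5, and the β-glucosidase BGLU18. These are 7 of the 27655 genes with a value in the expression tables. They were chosen with earlier results of these data known, so the counts of members that passed are descriptions, not an independent test. All 16 libraries, controls included, are labelled sweet1 (T-DNA insertion line SALK_029479 of the sugar transporter gene SWEET1, in Col-0), and no wild-type library was analysed here. The study describes this line as lacking detectable SWEET1 transcript, and against that description SWEET1 was at 8.29 to 17.6 TPM in the 16 libraries (a measure of transcript abundance relative to all transcripts of the library). The TPM covers the whole transcript and does not show which part of it was read, so the genotype is given below as a label only. Seeds were imbibed for 3 days at 4 °C and kept at 22 °C in constant light. At 24 h they were moved into liquid ½-strength Murashige and Skoog medium and collected 6 h later, 30 h after imbibition. The medium held no addition (control), 60 mM Glc, 5 µM ABA, or 5 µM ABA with 60 mM Glc (ABA + Glc), with 4 biological replicates in each group.

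ABA holds seeds in a non-germinating state, and its level falls as seeds prepare to germinate. The main route of loss is hydroxylation by the CYP707A cytochrome P450 enzymes, whose product turns into phaseic acid. A second route is the attachment of Glc by glucosyltransferases such as UGT71B6 and UGT71C5, which makes the inactive ABA-glucose ester; BGLU18, in the endoplasmic reticulum, and BGLU33, in the vacuole, split that ester and release ABA. CYP707A1 is known for acting during seed development, CYP707A2 for the drop in ABA at imbibition, and CYP707A3 for vegetative tissue and recovery from drought.

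The letters before the start of the hydroxylase genes are shown first, as a description. Whether they bear on the transcript levels of these genes was not tested. CYP707A1 (AT4G19230) lies on the plus strand at chr4:10521259-10523961 with 7 exons. CYP707A2 (AT2G29090) lies on the minus strand at chr2:12494826-12499723 with 9 exons, and CYP707A3 (AT5G45340) on the minus strand at chr5:18368532-18371021 with 6 exons. The 250 bases before the start of the first transcript model are given in the direction of the gene, from RefSeq on TAIR10.1, at chr4:10521009-10521258 for CYP707A1, chr2:12499724-12499973 for CYP707A2 and chr5:18371022-18371271 for CYP707A3. Capitals mark ACGTG on either strand, the core of the element bound by ABA-response bZIP factors; ACGTG and its reverse complement overlap in the palindromic G-box CACGTG.
CYP707A1: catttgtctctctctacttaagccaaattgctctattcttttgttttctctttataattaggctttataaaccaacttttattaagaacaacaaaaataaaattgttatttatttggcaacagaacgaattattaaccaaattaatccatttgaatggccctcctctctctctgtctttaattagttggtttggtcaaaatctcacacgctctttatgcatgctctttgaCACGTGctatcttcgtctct
CYP707A2: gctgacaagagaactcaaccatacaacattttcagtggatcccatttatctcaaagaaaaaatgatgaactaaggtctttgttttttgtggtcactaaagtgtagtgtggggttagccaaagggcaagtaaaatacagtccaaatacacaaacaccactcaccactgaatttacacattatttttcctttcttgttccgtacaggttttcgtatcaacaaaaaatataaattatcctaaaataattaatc
CYP707A3: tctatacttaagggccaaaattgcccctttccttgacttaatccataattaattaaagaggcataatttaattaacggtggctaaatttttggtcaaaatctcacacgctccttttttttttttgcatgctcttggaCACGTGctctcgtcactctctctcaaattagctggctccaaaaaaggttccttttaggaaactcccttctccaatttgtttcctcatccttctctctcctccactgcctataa

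CYP707A1 and CYP707A3 each held 1 G-box in this window, 20 to 15 bases before the start in CYP707A1 and 113 to 108 bases before it in CYP707A3. Among 27443 promoter windows of the same length, 6.57% held CACGTG and 23.2% held ACGTG on either strand. Both windows also held 1 copy of CATGCA on either strand, the core of the RY element of seed genes, which 8.40% of all windows held; these elements did not overlap. The CYP707A2 window held none of these letters, and neither did those of UGT71B6, UGT71C5 and BGLU18, while the CYP707A4 window held 1 ACGTG without a full G-box. The CYP707A1 and CYP707A3 windows further shared an unbroken run of 23 bases, which no other window held on either strand. Whether other pairs of windows share runs as long was not tested.
shared run: tttggtcaaaatctcacacgctc
This run began 61 bases before the start of CYP707A1 and 162 bases before that of CYP707A3, upstream of the G-box in both. The coding sequences of these genes were also the closest pair of the family, with 82.6% identical bases, against 63.7 to 67.5% for the other pairs of hydroxylases. Reads could still be told apart for most of their length, as only 1.25% of the 31-base words of the CYP707A1 transcript and 1.35% of those of CYP707A3 also occurred in another gene.

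Levels are given in TPM, which is scaled to transcript length so that genes can be compared, and tests were run on log2(TPM + 1) with limma over the 17045 genes with at least 1 TPM in at least 4 libraries. The read depth behind a value is unknown because TPM keeps no depth. One library, ABA + Glc replicate 3, stood apart from the rest, with a mean correlation across genes of 0.982 to its own group against 0.988 to 0.993 for the others. The table of the study covers 14 of these libraries and leaves out ABA replicate 3 and ABA + Glc replicate 3, so calls that differ over those 14 are named below; the values given are over all 16. SWEET1 passed the test in none of the 7 comparisons, but was higher with ABA than in control when ABA + Glc replicate 3 was left out. Of the 7 genes, 4 passed the filter on low values (CYP707A1, CYP707A2, CYP707A3 and UGT71C5), and CYP707A4, UGT71B6 and BGLU18 did not.

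CYP707A1 was the most abundant hydroxylase transcript in ABA-treated seeds. Its level was 15.02, 11.8, 11.2 and 12.4 TPM in control replicates 1 to 4, and 9.76, 7.76, 7.40 and 6.76 TPM with Glc. With ABA it reached 40.3, 36.1, 35.9 and 35.4 TPM, and with ABA + Glc it was 16.4, 20.2, 16.9 and 20.2 TPM. The 4 groups did not overlap in any pair, and their order from high to low was ABA, ABA + Glc, control and Glc. How often groups fail to overlap among all tested genes was not counted, so non-overlap is a description here and below. The group means were 36.9 ± 2.24, 18.4 ± 2.03, 12.6 ± 1.68 and 7.92 ± 1.29 TPM in that order (SD, n = 4). In these whole-seed samples, a change in the number of expressing cells and a change in RNA per cell cannot be told apart.

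CYP707A2 was the least abundant of the 3 detected hydroxylases in control seeds, at 4.12, 3.68, 3.30 and 3.52 TPM. Seeds on Glc held 3.18, 3.40, 2.90 and 2.86 TPM. ABA raised the level to 13.6, 10.4, 13.7 and 10.1 TPM, and ABA + Glc seeds held 7.16, 8.95, 8.78 and 7.47 TPM. The order of the groups was the same as for CYP707A1, but Glc and control overlapped, and only these neighbours in the order did not differ beyond their spread. The means were 11.9 ± 1.95 with ABA, 8.09 ± 0.906 with ABA + Glc, 3.655 ± 0.347 in control and 3.085 ± 0.254 TPM with Glc (SD, n = 4).

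CYP707A3 varied much less. Its level was 12.9, 10.6, 9.35 and 11.2 TPM in control seeds and 7.59, 8.06, 7.69 and 8.48 TPM with Glc. ABA-treated seeds held 16.1, 10.3, 14.6 and 12.5 TPM, and ABA + Glc seeds 8.28, 9.74, 10.4 and 8.56 TPM. ABA overlapped with control and, through replicate 2 at 10.3 TPM, with ABA + Glc; each group overlapped with its neighbour in the order ABA, control, ABA + Glc and Glc. The only pairs of groups with no overlap were Glc with control and Glc with ABA. Means were 13.4 ± 2.55, 10.998 ± 1.47, 9.235 ± 0.981 and 7.955 ± 0.404 TPM in the order given (SD, n = 4).

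UGT71C5 (AT1G07240, chr1:2223625-2225524, plus strand, 1 exon) was the only member of the conjugation route that passed the filter. Control seeds held 5.36, 5.59, 6.29 and 6.65 TPM and Glc seeds 6.88, 7.34, 5.50 and 6.50 TPM. The level was 4.84, 5.34, 5.17 and 4.53 TPM with ABA, and 4.61, 5.32, 6.21 and 5.18 TPM with ABA + Glc. The ABA libraries lay below all control libraries and all Glc libraries, the closest pair being 5.34 and 5.36 TPM, and the other pairs of groups overlapped. From high to low the means were 6.555 ± 0.783 with Glc, 5.97 ± 0.600 in control, 5.33 ± 0.662 with ABA + Glc and 4.97 ± 0.359 TPM with ABA (SD, n = 4), and each group overlapped with its neighbour.

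**Figure D1:**
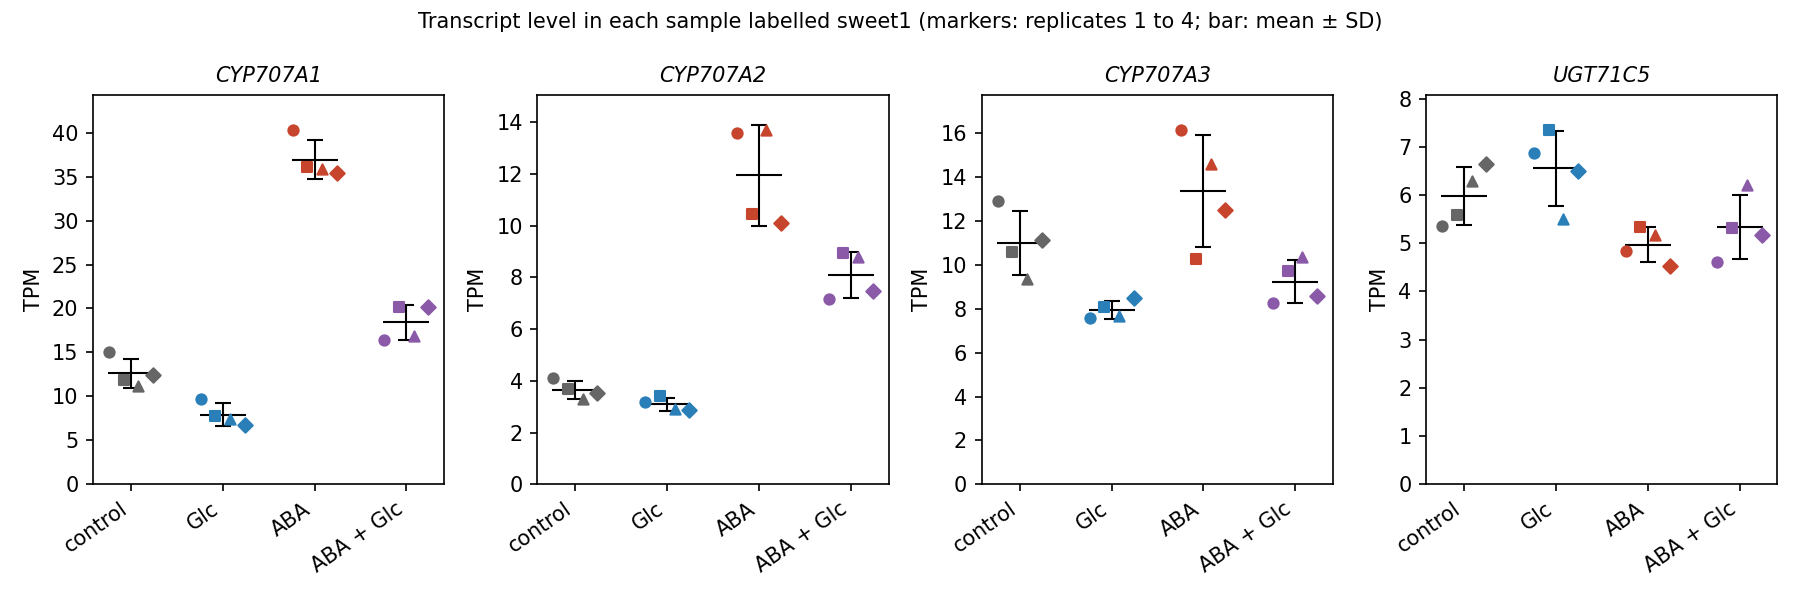
TPM (y axis, linear from 0, a separate scale in each panel) of the 4 tested genes in the 16 libraries labelled sweet1 by treatment (x axis); markers are replicates 1 to 4 and bars the mean ± SD of 4. The 4 groups are separate for CYP707A1, from 6.76 TPM in the lowest Glc library to 40.3 TPM in the highest ABA library, while UGT71C5 stays between 4.53 and 7.34 TPM.

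CYP707A4 (AT3G19270, chr3:6673689-6676521, minus strand, 8 exons), the remaining hydroxylase, was listed at 0 in 16 of 16 libraries. BGLU18 (AT1G52400, chr1:19514989-19518411, plus strand, 12 exons) was listed at 0 in 13 of 16 libraries, with 0.21 TPM in Glc replicate 1 and 0.05 TPM in ABA + Glc replicates 1 and 3. UGT71B6 (AT3G21780, chr3:7674904-7676519, minus strand, 1 exon) was at 0.15, 0.05, 0.29 and 0.28 TPM in control and 0.07, 0, 0.19 and 0.20 TPM with Glc. It was at 0.32, 0.06, 0.22 and 0.08 TPM with ABA and 0, 0.08, 0.14 and 0.21 TPM with ABA + Glc, so the groups overlapped in every pair. All of UGT71B6 lies within AT3G21781, a long noncoding RNA gene on the opposite strand, and no source used here says whether quantification used strand. No fold change or test is given for these 3 genes.

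ABA treatment raised CYP707A1 and CYP707A2, and neither CYP707A3 nor UGT71C5 passed the test. This comparison asks how the breakdown route stood 6 h after ABA was given without Glc. Mean CYP707A1 was 2.93 times and mean CYP707A2 3.27 times the control level. On the log2(TPM + 1) scale, which understates folds of low genes, the differences were 1.48 ± 0.10 for CYP707A1 (SE; limma adjusted p = 3.78e-09) and 1.47 ± 0.10 for CYP707A2 (limma adjusted p = 5.09e-09). The difference was 0.25 ± 0.12 for CYP707A3 (95% interval 0.01 to 0.50; limma adjusted p = 0.112) and -0.22 ± 0.10 for UGT71C5 (-0.43 to -0.02; limma adjusted p = 0.0935). Thus 2 of the 4 tested members passed, both higher, where 30.9% of all tested genes passed in either direction. Both stood far up the list, as only 1.48% of tested genes had a larger log2 difference than CYP707A1 and 1.50% a larger one than CYP707A2. Without ABA replicate 2 the CYP707A3 difference was 0.36 and passed the test (limma adjusted p = 0.0169).

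Seed storage and oil body genes moved in the same comparison. Of 6 such genes 5 were higher with ABA, where 14.2% of all tested genes were higher and 16.7% lower. The summed level of the 6 was 320.2 to 536.4 TPM in control, 434.6 to 667.3 TPM in Glc seeds, 4118 to 4410 TPM under ABA and 3123 to 3422 TPM under ABA + Glc. CRA1 and EM6, with means of 1626 and 1407 TPM under ABA, made up most of that sum. In ABA + Glc against ABA none of the 6 passed, where 3.95% of all tested genes did. Mean CRC went from 181.5 to 237.9 TPM and mean CRU2 from 16.4 to 24.3 TPM, while the means of the others went down. The cruciferin gene CRA1 rose by 3.39 and the oleosin genes OLEO1 and OLEO2 by 3.75 and 4.41 on the log2(TPM + 1) scale, and the late embryogenesis gene EM6 by 4.74. Endosperm genes summed to 1288 to 1589 TPM in control, 1578 to 1667 TPM in Glc seeds, 1364 to 1621 TPM under ABA and 1593 to 1786 TPM under ABA + Glc, and of 3 genes only the mannanase gene MAN7 passed (1.48, higher). Of 2 genes of green tissue, which summed to 2036 to 2088 TPM in control, 1893 to 1979 TPM with Glc, 1945 to 2142 TPM with ABA and 1850 to 2317 TPM with ABA + Glc, LHCB1.3 was lower with ABA by 0.49. EXPA2 (mean 1283 TPM in control) made up most of the endosperm sum, and RBCS1A (mean 2041 TPM in control) most of the green tissue sum. These 2 sums therefore say little about MAN7 and LHCB1.3. None of the marker genes was at 0 in a group, and their part in the results for the 7 genes was not tested.

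Adding Glc to ABA lowered all 3 detected hydroxylases against ABA alone, and UGT71C5 did not pass the test. Mean CYP707A1 was 0.499 times, CYP707A2 0.677 times and CYP707A3 0.690 times the level with ABA. The differences on the log2(TPM + 1) scale were -0.97 ± 0.10 for CYP707A1 (SE; limma adjusted p = 4.12e-05) and -0.50 ± 0.10 for CYP707A2 (limma adjusted p = 0.00923). For CYP707A3 the difference was -0.48 ± 0.12 (limma adjusted p = 0.0253), and for UGT71C5 it was 0.08 ± 0.10 (95% interval -0.12 to 0.28; limma adjusted p = 0.695). So 3 of 4 tested members passed, all lower, where 3.95% of all tested genes passed, a count that fell from 674 to 443 genes without ABA replicate 1. CYP707A1 ranked 17 by p-value among the 17045 genes. The CYP707A3 call was lost without replicate 1 or 3 of the ABA group (limma adjusted p = 0.0949 and 0.0812) and without replicate 1 or 4 of the ABA + Glc group (limma adjusted p = 0.0669 and 0.0597). It was also lost over the 14 libraries described above (limma adjusted p = 0.0519) and, together with that of CYP707A2, when only the 8 libraries compared were fitted (limma adjusted p = 0.104 and 0.0577).

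Glc without ABA lowered CYP707A1. The mean was 0.628 times the control level, with a difference of -0.61 ± 0.10 on the log2(TPM + 1) scale (SE; limma adjusted p = 0.00253). CYP707A3 differed by -0.41 ± 0.12 and did not pass, just outside the threshold (limma adjusted p = 0.0551). The differences were -0.19 ± 0.10 for CYP707A2 (95% interval -0.41 to 0.03; limma adjusted p = 0.392) and 0.11 ± 0.10 for UGT71C5 (-0.09 to 0.32; limma adjusted p = 0.616). One of 4 tested members passed here, where 3.75% of all tested genes did. Among the marker genes above, 4 of 6 seed storage and oil body genes were higher with Glc than in control, where 1.14% of all tested genes were higher and 2.61% lower. They were CRA1 by 0.61, CRU2 by 0.82, CRC by 0.78 and OLEO2 by 0.64 on the log2(TPM + 1) scale. MAN7 was higher by 0.75 and LHCB1.3 lower by 0.46. The part of these marker genes in the result was not tested. The CYP707A3 difference passed over the 14 libraries (limma adjusted p = 0.0348), and without control replicate 3, ABA replicate 1, ABA replicate 2 or ABA + Glc replicate 3 (limma adjusted p = 0.0396, 0.0429, 0.0268 and 0.0330). The count over all genes, 639, was 317 without control replicate 1, 387 without control replicate 2, 365 without Glc replicate 1, 423 without Glc replicate 4, 1213 without ABA + Glc replicate 3 and 1290 over the 14 libraries.

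With both compounds, CYP707A1 and CYP707A2 stayed above control. Mean CYP707A1 was 1.46 times and mean CYP707A2 2.21 times the control level, with differences of 0.51 ± 0.10 (SE; limma adjusted p = 0.00126) and 0.96 ± 0.10 (limma adjusted p = 1.78e-06) on the log2(TPM + 1) scale. CYP707A3 differed by -0.23 ± 0.12 (95% interval -0.47 to 0.02; limma adjusted p = 0.166) and UGT71C5 by -0.14 ± 0.10 (-0.35 to 0.06; limma adjusted p = 0.310). This made 2 of 4 tested members, where 25.1% of all tested genes passed. As a share of the rise in mean TPM seen with ABA alone, ABA + Glc seeds kept 23.9% for CYP707A1 and 53.5% for CYP707A2; the difference between these shares was not tested.

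Against Glc alone, the same pair of hydroxylases was higher with ABA + Glc, by 1.13 ± 0.10 for CYP707A1 (SE; limma adjusted p = 3.07e-07) and 1.15 ± 0.10 for CYP707A2 (limma adjusted p = 2.68e-07). CYP707A3 differed by 0.19 ± 0.12 (limma adjusted p = 0.307) and UGT71C5 by -0.26 ± 0.10 (limma adjusted p = 0.0869), giving 2 of 4 members where 16% of all tested genes passed. UGT71C5 passed without Glc replicate 3 (limma adjusted p = 0.0368), without ABA + Glc replicate 3 (limma adjusted p = 0.0320) or over the 14 libraries (limma adjusted p = 0.0368). It also passed with sample weights (limma adjusted p = 0.0304) and with TPM rescaled to the same total in each library (limma adjusted p = 0.0364). ABA against Glc was the only comparison in which all 4 tested members passed, beside 24.9% of all tested genes. CYP707A1 was 4.66 times, CYP707A2 3.87 times and CYP707A3 1.68 times as high with ABA, with log2(TPM + 1) differences of 2.10, 1.65 and 0.67 (limma adjusted p = 3.82e-11, 1.16e-09 and 0.000287). UGT71C5 was lower with ABA by 0.34 (limma adjusted p = 0.0161), and this call was lost without Glc replicate 2 (limma adjusted p = 0.0587) or ABA replicate 4 (limma adjusted p = 0.0526). The 6 pairwise comparisons share their libraries and are not independent.

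The interaction asks whether the difference made by Glc depended on ABA. None of the 4 tested members passed with limma, where 3.26% of all tested genes did, and 2 of them had an unadjusted p under 0.05. The term was -0.36 on the log2(TPM + 1) scale for CYP707A1 (95% interval -0.67 to -0.05; limma adjusted p = 0.226) and -0.32 for CYP707A2 (-0.63 to -0.0037; limma adjusted p = 0.300). It was -0.06 for CYP707A3 (-0.41 to 0.28; limma adjusted p = 0.886) and -0.03 for UGT71C5 (-0.32 to 0.26; limma adjusted p = 0.934). A difference in the response to Glc with and without ABA was thus not shown for any of them.

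**Figure D2:**
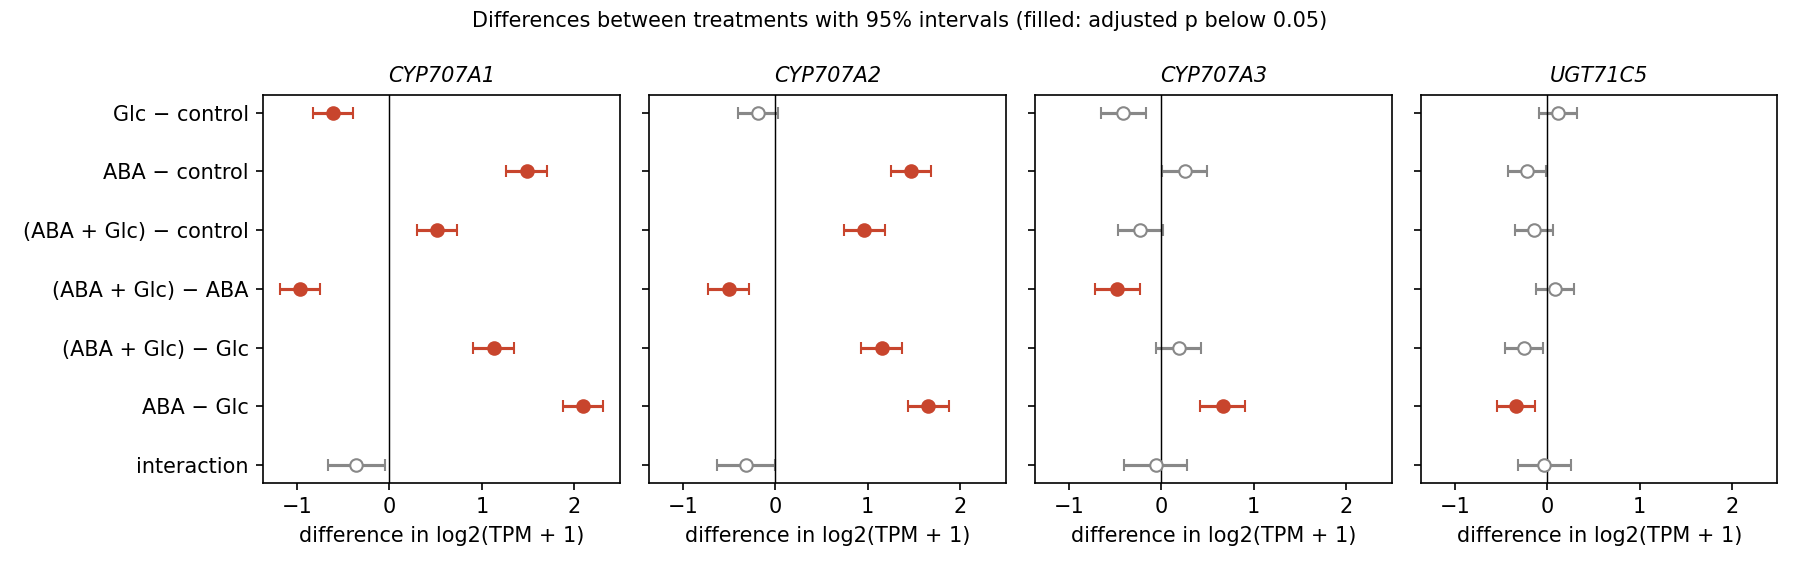
Differences in log2(TPM + 1) (x axis) for the 4 tested genes in the 6 pairwise comparisons and the interaction (y axis), with 95% intervals from limma; filled points have an adjusted p below 0.05. CYP707A1 reaches 2.10 in ABA against Glc, and no interaction point is filled.

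The make-up of the hydroxylase transcripts changed along with their sum. CYP707A1, CYP707A2 and CYP707A3 together held 23.9 to 32.0 TPM in control, 18.0 to 20.5 TPM with Glc, 56.8 to 70.0 TPM with ABA and 31.9 to 38.8 TPM with ABA + Glc. Control and ABA + Glc overlapped by the control library at 32.0 TPM, and no other pair overlapped. CYP707A3 made up 40.3 ± 0.842% of the sum in control and 42.1 ± 4.05% with Glc, but 21.4 ± 2.30% with ABA and 25.9 ± 2.15% with ABA + Glc (SD, n = 4). The share of CYP707A1 was 46.2 ± 0.8289% in control and 41.6 ± 4.28% with Glc, against 59.5 ± 3.45% with ABA and 51.5 ± 3.62% when both were given. CYP707A2 had its lowest share in control (13.5 ± 0.614%) and its highest with ABA + Glc (22.6 ± 1.55%), with 16.3 ± 0.978% for Glc and 19.1 ± 1.68% for ABA between them.

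Ratios of 2 genes within a library, like the shares above, do not depend on the scaling of that library. For the hydroxylases they restate the same values. There were 3.21 to 3.65 CYP707A1 transcripts per CYP707A2 transcript in control libraries, above the 2.28 to 3.07 with Glc and the 1.92 to 2.70 with ABA + Glc. With ABA the ratio was 2.62 to 3.51, which overlapped with all 3 other groups. The ratio of CYP707A3 to CYP707A2 was 2.83 to 3.17 in control and 2.37 to 2.97 with Glc, against 0.984 to 1.24 with ABA and 1.09 to 1.18 with ABA + Glc. For CYP707A1 over UGT71C5, a hydroxylase against a glucosyltransferase, the ratio was 1.78 to 2.80 in control, 1.04 to 1.42 with Glc, 6.77 to 8.32 with ABA and 2.72 to 3.90 with ABA + Glc. These ratios are descriptions with no test.

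**Figure D3:**
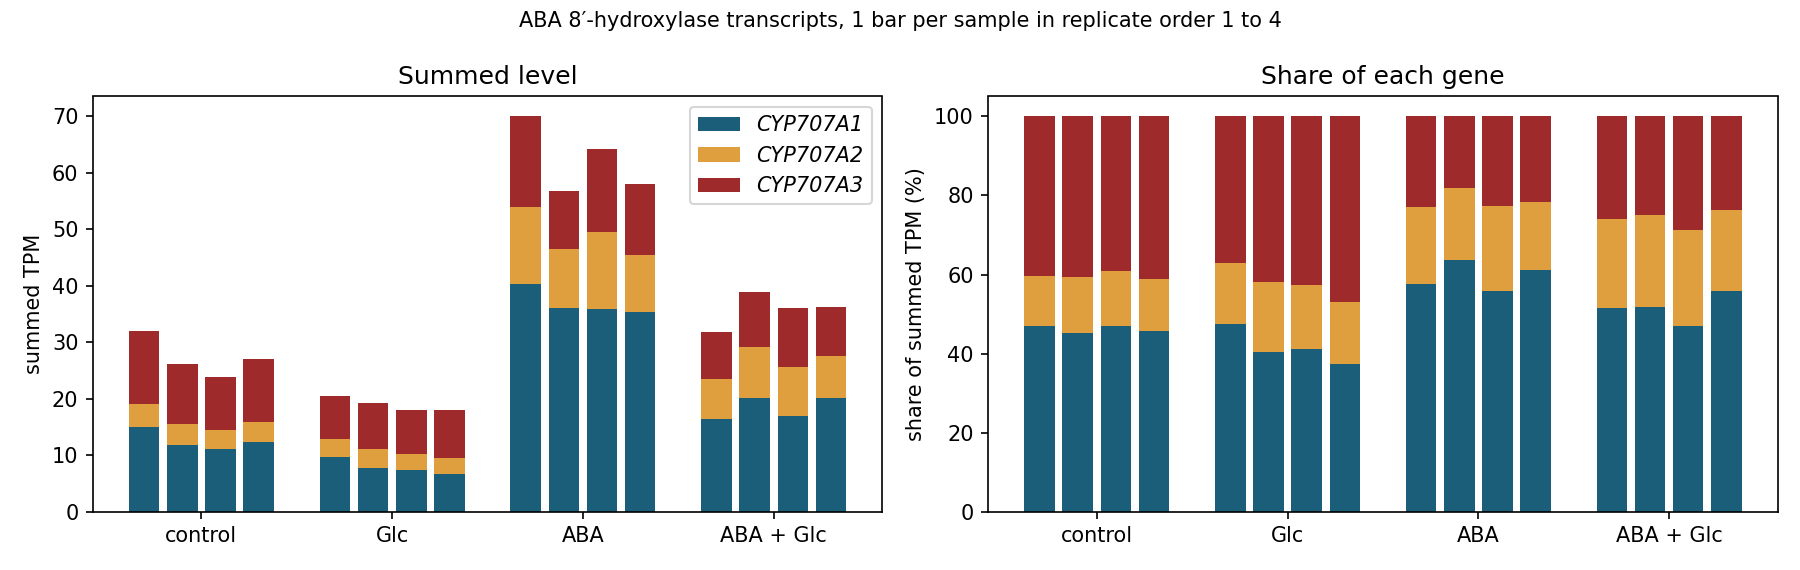
Stacked TPM (left, y axis) and share of the summed TPM in % (right, y axis) of CYP707A1, CYP707A2 and CYP707A3 in each of the 16 libraries, grouped by treatment in replicate order. The sum is 56.8 to 70.0 TPM with ABA, above all other libraries, and CYP707A3 makes up about as much as CYP707A1 in control and Glc libraries and less in the others.

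Among all genes, CYP707A1 ranked above 46.2% of tested genes by mean TPM in control seeds and above 74.3% with ABA. CYP707A2 went from above 18.3% to above 44.3%, and CYP707A3 from 42.3% to 47.4%. UGT71C5 stood above 27.0% in control and 23.7% with ABA. The median tested gene was at 14.35 TPM in control and 14.6 TPM with ABA.

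The genes whose profile over the 16 libraries was most like that of each member were sought among 7161 genes that passed in at least 1 comparison, by the root mean square difference of centred log2(TPM + 1) values. For CYP707A1 they were TPPG, a trehalose phosphate phosphatase gene (0.183), SSL9, a strictosidine synthase-like gene (0.216), and KIN2, a cold- and ABA-inducible gene (0.232). CYP707A2 was nearest to SSL9 (0.143), AT3G56880 (0.143) and the lectin gene EULS3 (0.144). CYP707A1 and CYP707A2 differed from each other by 0.263, and from CYP707A3 by 0.599 and 0.557. CYP707A3 was nearest to the glutathione transferase gene GSTU5 (0.129), the transcription factor gene MYB73 (0.149) and SAG20 (0.154). For UGT71C5 the nearest were AT2G47230, AT5G57270 and AT1G20410 (0.0902, 0.0937 and 0.0971). These distances are smaller for genes that vary little, so they cannot be compared between members. Over the 16 libraries the SD of log2(TPM + 1) was 0.806 for CYP707A1, 0.716 for CYP707A2, 0.302 for CYP707A3 and 0.178 for UGT71C5. TPPG, the nearest to CYP707A1, was at 3.6 TPM in control, 2.2975 TPM with Glc, 11.5 TPM with ABA and 6.31 TPM with ABA + Glc on average.

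Among related glucosyltransferases, 9 of 13 genes were tested, and 5 were higher and 1 lower with ABA than in control, where 14.2% of all tested genes were higher and 16.7% lower. The median log2 difference of the 9 was 0.28, against 0.00 over all tested genes. UGT71B7 and UGT71B8, close relatives of UGT71B6 with 73.9 and 74.8% identical coding bases that can also glucosylate ABA, were far above it in level. UGT71B8 rose from 1.48 ± 0.171 TPM in control to 4.16 ± 0.444 TPM with ABA (1.05 on the log2(TPM + 1) scale; limma adjusted p = 1.03e-07) and was 4.005 ± 0.253 TPM with ABA + Glc (SD, n = 4). UGT71B7 was at 12.2 ± 0.895 TPM in control and 13.1 ± 1.36 TPM with ABA and did not pass (limma adjusted p = 0.467). UGT75B1 rose by 0.51 and UGT71B2 by 0.50 with ABA, and UGT71C1 fell by 1.16. With ABA + Glc against ABA 1 of 9 passed, where 3.95% of all tested genes did. This was again UGT71C1, which fell from 0.843 to 0.270 TPM (limma adjusted p = 0.013). The median of the 9 was -0.13.

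Of the related β-glucosidases and the genes of the ER body, an endoplasmic reticulum compartment that stores such enzymes, 6 of 7 were tested. With ABA, 1 was higher and 4 lower than in control (median -0.38), where 14.2% of all tested genes were higher and 16.7% lower. BGLU33, a vacuolar hydrolase of the ABA-glucose ester, was listed at 0 in all 16 libraries, so that neither BGLU18 nor BGLU33 was above 0.21 TPM. BGLU19 was the gene that rose, from 3.10 ± 0.669 TPM in control to 32.5 ± 3.19 TPM with ABA (SD, n = 4; 3.04 on the log2(TPM + 1) scale; limma adjusted p = 1.15e-10). BGLU21 fell by 1.24, NAI1, a transcription factor gene for ER body formation, by 0.81, and BGLU22 by 0.56. None of the 6 passed in ABA + Glc against ABA with limma, where 3.95% of all tested genes did, and 1 had an unadjusted p under 0.05. BGLU19 was at 23.1 ± 2.03 TPM with ABA + Glc (limma adjusted p = 0.125 against ABA).

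Of 10 genes of ABA synthesis 8 were tested, and 4 of these were higher and none lower with ABA than in control, where 14.2% of all tested genes were higher (median of the 8, 0.40). ABA1, the zeaxanthin epoxidase gene, rose from 12.5 ± 0.831 to 36.0 ± 1.50 TPM (SD, n = 4; 1.45 on the log2(TPM + 1) scale; limma adjusted p = 1.14e-12). The epoxycarotenoid dioxygenase genes NCED9 and NCED5 rose by 1.33 and 0.67, and AAO3, the aldehyde oxidase gene of the last step, by 0.50. NCED5 was near the floor, at 0.33 to 0.80 TPM in control, 0.34 to 0.75 TPM with Glc and 0.83 to 1.82 TPM with ABA. It passed the filter only through the groups given ABA, so its call is a description. In ABA + Glc against ABA, ABA1 (27.7 ± 0.571 TPM) fell by 0.37 (limma adjusted p = 0.000907) and NCED9 (3.43 ± 0.666 TPM) by 0.55 (limma adjusted p = 0.0231). Both also passed in the interaction, at -0.58 for ABA1 (limma adjusted p = 0.000384) and -0.85 for NCED9 (limma adjusted p = 0.015). The summed TPM of the 10 genes was 53.9 to 58.1 in control, 61.0 to 61.7 with Glc, 83.3 to 87.0 with ABA and 74.1 to 85.6 with ABA + Glc. The sums with ABA and with ABA + Glc overlapped. Most of the rise with ABA lay in ABA1, which went from 12.5 to 36.0 TPM.

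Of 6 ABA transporter genes 3 were tested. The exporter gene ABCG25 rose by 0.63 with ABA, to 77.8 ± 3.38 TPM from 50.2 ± 4.96 TPM in control (SD, n = 4), while the importer genes ABCG30 and NPF4.6 fell by 0.55 and 0.27. None of the 3 passed in ABA + Glc against ABA with limma, where 3.95% of all tested genes did, and 2 had an unadjusted p under 0.05. Of the ABA response genes, 10 of 11 tested were higher and 1 lower with ABA (median 2.57), where 14.2% of all tested genes were higher and 16.7% lower. The largest rises were in RD29A (5.87), EM1 (5.39), RD29B (5.30) and EM6 (4.74) on the log2(TPM + 1) scale. RD29A was at only 0.35 to 0.90 TPM in control and 0.58 to 1.17 TPM with Glc. It passed the filter through the groups given ABA, so its call is a description. EM6 also counts among the seed storage genes above. In ABA + Glc against ABA, 6 of 11 were lower and none higher (median -0.54), where 2.65% of all tested genes were lower and 1.3% higher. RD29A fell from 93.4 ± 11.1 to 46.0 ± 4.77 TPM (SD, n = 4; limma adjusted p = 0.000124).

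**Figure D4:**
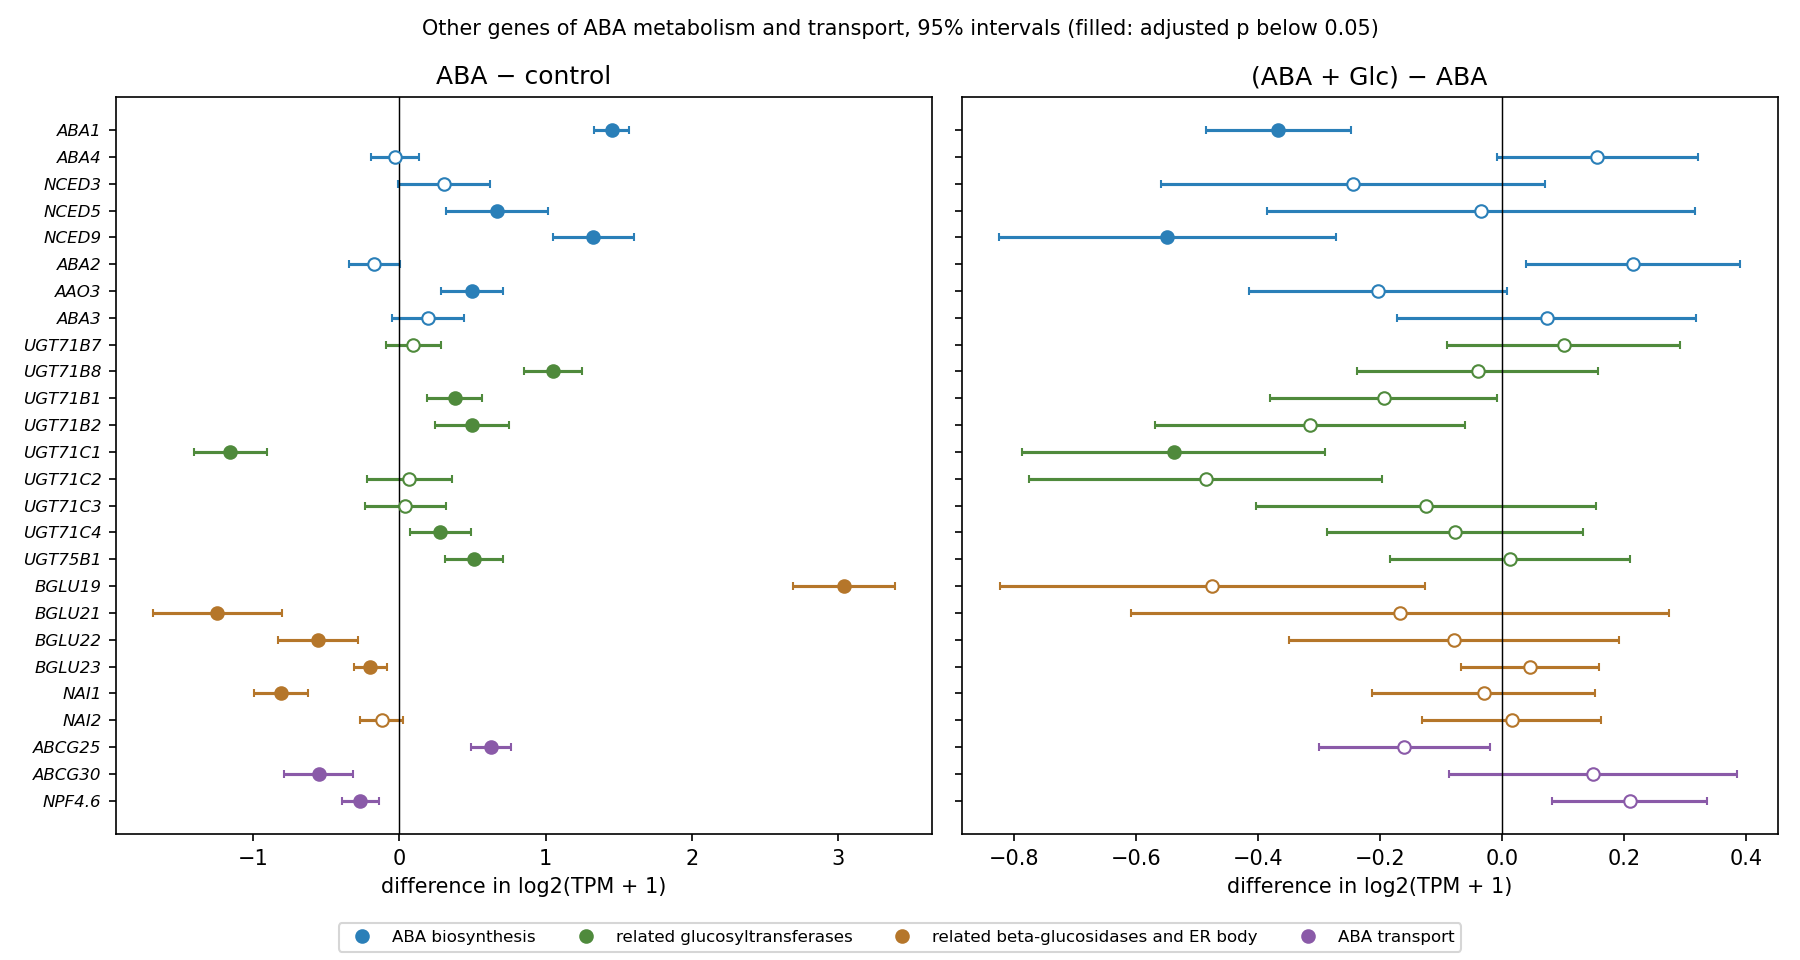
Differences in log2(TPM + 1) (x axes, with a different range in each panel) for the tested genes of 4 lists (y axis, coloured by list) in ABA against control (left) and ABA + Glc against ABA (right), with 95% intervals from limma; filled points have an adjusted p below 0.05. BGLU19 lies farthest to the right at 3.04 with ABA, and the 3 filled points on the right panel, ABA1, NCED9 and UGT71C1, are all below 0.

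Without ABA + Glc replicate 3, the number of members that passed in ABA against control and in ABA + Glc against ABA stayed at 2 and 3, and over the 14 libraries it was 2 and 2; both alternatives were chosen after seeing the data. In both, 5 of 6 β-glucosidase and ER body genes were lower with ABA than in control, and the counts given above for the other lists of ABA synthesis, glucosylation, transport and response held in these comparisons.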

How the data were processed

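RNA was sequenced from whole germinating seeds of 16 samples in 4 groups. Per the labels and the study's methods, the authors trimmed reads with Trimmomatic 0.38 and quantified primary transcripts with kallisto 0.44.0, and sleuth is also named. The deposited values are TPM signal, 1 value per gene and library; 9 of 16 columns sum to over 1000000, so the authors may have scaled them between libraries in a step that no source used here describes. Because TPM keeps no counts, depth is unknown and no count model was used. Groups came from the labels.

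TPM as deposited was transformed to log2(TPM + 1). Genes with at least 1 TPM in at least 4 libraries (17045 of 27655) were fitted with limma 3.58.1 (R 4.3.3; trend, two-sided, all 16 libraries, group as the only term). P-values were adjusted by Benjamini-Hochberg over all tested genes, with a threshold of 0.05. P-values measure the spread between the replicates, which the labels call biological. No 2 libraries held the same values. The fit was tested on simulated data with 200 changed genes.

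Up to 4 genes per list were named, those with the largest difference among genes that passed in ABA against control or ABA + Glc against ABA, plus BGLU33, UGT71B7, UGT71B8 and SWEET1, and the 3 nearest profiles per member. Members and lists were chosen with earlier results of these data known. Promoter windows, motifs and gene positions came from RefSeq on TAIR10.1. The expression tables give genes by ID and name. The alternatives were other pseudocounts (0.1, 0.5), filters (none, or 5 TPM in 8 libraries), scalings, sample weights, a replicate block, a fit of only the groups compared, leaving out each library, and the 14 libraries of the study's table.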

Additional observations from a re-analysis of the deposited data

Results flagged for a closer look

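In 22 groups of 4 libraries, the gap from the highest or lowest library to its neighbour was divided by the range of the group and set against Dixon's critical value, which chance passes in about 1 of 20 groups. It was passed in 2 of the 22. CYP707A1 in the ABA group gave 0.853, with replicate 1 at 40.3 TPM and the others at 35.4 to 36.1 TPM. BGLU18 in the Glc group gave 1, with 0.21 TPM in replicate 1 and a listed 0 in the others. The quotient is always 1 when only 1 library is above 0, so the chance rate given above does not apply to BGLU18.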

How the results depend on the processing

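Over the 14 libraries of the study's table, 2 members and 1290 genes passed in Glc against control. The calls for CYP707A1 in the 6 pairwise comparisons held under all alternatives run, as did those for CYP707A2 except in ABA + Glc against ABA. For Glc against control, 2 members passed in place of 1 with the filter of 5 TPM in 8 libraries, quantile normalization, sample weights, or only the 8 libraries compared, CYP707A3 being the added gene; sample weights also moved the count over all genes from 639 to 1569, and that of the interaction from 556 to 989. With only the 8 libraries compared, ABA + Glc against ABA gave 1 member and 374 genes in place of 3 and 674. Leaving out 1 library at a time gave 1 to 2 members and 317 to 1213 genes for Glc against control and 443 to 683 genes for ABA + Glc against ABA; the interaction ranged from -0.10 to 0.02 for UGT71C5 and from -0.17 to 0.03 for CYP707A3, turning its sign (0.0098 without control replicate 1, 0.016 without Glc replicate 2 and 0.023 without ABA + Glc replicate 1 for UGT71C5; 0.0055 without control replicate 3 and 0.027 without ABA replicate 1 for CYP707A3). Fewer samples enter these fits; for the other settings the cause was not tested.

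Rescaling to 1000000 TPM per library, added after seeing the data, moved the median of all genes by at most 0.0877, and the share of higher calls from 30.4 to 48.7% (Glc against control), 46.0 to 33.1% (ABA against control), 32.9 to 44.6% (ABA + Glc against ABA), 48.3 to 29.7% (ABA + Glc against Glc) and 48.6 to 27.2% (ABA against Glc, 38.2% with quantile normalization). The replicate numbers did not pair the libraries: 24 same-numbered pairs had correlations of -0.136 to 0.133, with 2 over 0.1. The replicate block gave 496, 4935, 3883, 543, 2413, 3924 and 436 genes over the comparisons in the order Glc, ABA and ABA + Glc against control, ABA + Glc against ABA and against Glc, ABA against Glc, and the interaction, and changed no call of a member; CYP707A3 in ABA + Glc against ABA stayed at a limma adjusted p = 0.0476. Low transcripts are one limit, since UGT71B6 and BGLU18 are at or below 0.32 TPM and depth is unknown.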
